A study of Mus musculus with 3186 samples.

Results

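A set of 10 genes for immediate early transcription factors was followed across the cells of the adult mouse brain vasculature. They were chosen by name: Fos, Fosb, Jun, Junb, Jund, Egr1, Atf3, Ier2, Klf2 and Klf4. All 10 were found among the 19937 genes of the count tables. All 3186 cells came from C57BL/6 mice aged 12 to 15 weeks and were sorted by fluorescence into 384-well plates, after which Smart-seq2, a full-length single-cell method, gave 1 library per cell. The donors carried 1 of 3 reporter genotypes: Cldn5(BAC)eGFP, in which the gene of an endothelial tight junction protein drives the reporter (1445 cells on 4 plates, EC3 to EC6), Pdgfrb(BAC)eGFP/NG2dsRed, in which double-positive mural cells were taken (1484 cells on 4 plates, Mural3 to Mural6), and Pdgfra-H2BGFP, a nuclear reporter that marks a perivascular population and the oligodendrocyte lineage (257 cells on plates Pdgfra1 and Pdgfra2). The labels give no treatment and name no animal.

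Immediate early genes are transcribed within minutes of a stimulus from factors already present in the cell, with no need for new protein. Fos and Fosb proteins pair with Jun, Junb or Jund to form the AP-1 factor, Atf3 is a related bZIP protein that often represses, Egr1 is a zinc finger factor, and Ier2 is a small nuclear protein of the same rapid response. Klf2 and Klf4 are Kruppel-like zinc finger factors that respond to blood flow in endothelium, where they are held on by steady laminar shear, and both can also rise as early response genes. Several of these genes are also known to be induced while tissue is dissociated. All cells here were dissociated and sorted, so that part was not tested.

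Positions are those of the GENCODE M21 annotation of mm10. Fos occupies chr12:85473890-85477273 on the plus strand, Jun the single-exon stretch chr4:95049034-95052222 on the minus strand, Klf2 chr8:72319033-72321656 on the plus strand and Klf4 chr4:55527143-55532466 on the minus strand. Junb (chr8:84974484-84978718), Jund (chr8:70698949-70700616) and Ier2 (chr8:84661331-84662852) also have 1 exon each, while Fosb lies at chr7:19302696-19310051 and Atf3 at chr1:191170296-191218039. RefSeq upstream sequence on GRCm38.p6 was matched for 8 of the 10 members, and 5 stretches are shown. They belong to the AP-1 genes Fos, Jun and Junb and to the Kruppel-like factors Klf2 and Klf4. Each runs 5′ to 3′ on the strand of its gene and ends just before the start annotated by RefSeq, except that of Klf2, which stops short of that start where a GENCODE exon begins (chr12:85473640-85473889 plus, chr4:95052223-95052472 minus, chr8:84978749-84978998 minus, chr8:72318812-72319032 plus and chr4:55532476-55532725 minus). Capitals mark TGACG on either strand, the core of the cyclic AMP response element, and the MEF2 consensus.
Fos: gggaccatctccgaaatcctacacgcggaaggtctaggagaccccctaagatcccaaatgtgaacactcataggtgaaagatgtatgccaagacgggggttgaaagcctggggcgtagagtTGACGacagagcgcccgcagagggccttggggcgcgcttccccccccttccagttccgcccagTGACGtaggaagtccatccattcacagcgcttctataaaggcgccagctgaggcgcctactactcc
Jun: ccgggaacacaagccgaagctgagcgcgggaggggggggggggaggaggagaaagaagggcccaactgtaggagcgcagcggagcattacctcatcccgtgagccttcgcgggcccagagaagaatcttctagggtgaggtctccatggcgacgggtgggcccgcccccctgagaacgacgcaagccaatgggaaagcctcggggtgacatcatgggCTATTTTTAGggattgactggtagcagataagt
Junb: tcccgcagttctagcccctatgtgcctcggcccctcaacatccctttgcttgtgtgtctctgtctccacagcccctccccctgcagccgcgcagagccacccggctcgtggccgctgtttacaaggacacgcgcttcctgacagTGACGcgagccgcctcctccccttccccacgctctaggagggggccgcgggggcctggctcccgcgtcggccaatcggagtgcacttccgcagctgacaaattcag
Klf2: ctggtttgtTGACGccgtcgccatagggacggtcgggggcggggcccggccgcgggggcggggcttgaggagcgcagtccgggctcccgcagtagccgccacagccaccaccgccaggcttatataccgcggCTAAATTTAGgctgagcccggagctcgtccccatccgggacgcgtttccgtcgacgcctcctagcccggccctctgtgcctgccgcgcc
Klf4: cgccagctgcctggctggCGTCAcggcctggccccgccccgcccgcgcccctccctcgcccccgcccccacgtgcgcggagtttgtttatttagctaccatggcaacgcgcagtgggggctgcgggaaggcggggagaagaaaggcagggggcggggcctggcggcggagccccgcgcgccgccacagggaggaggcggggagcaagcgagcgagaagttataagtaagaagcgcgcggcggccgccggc
In the full 250 bases upstream of the start, TGACG was found in 6 of the 8 members (at 2 places in Fos, with first bases 66 and 129 bases before the start, and in Fosb, Junb, Atf3, Klf2 and Klf4) and in 17.8% of all 32851 upstream stretches of that length. The MEF2 consensus was found in 3 of 8 (Jun, Klf2 and Atf3) and in 2.92% of all stretches, with the first base 33 bases before the start in Jun and 118 in Klf2, whose TGACG begins 241 bases before the start. Neither TGANTCA, the AP-1 site, which was in 6.75% of all stretches, nor the CArG box, in 1.47%, was found in any of the 8 windows. Both strands were searched, no TGACG match overlapped a MEF2 match, and a match of letters is not evidence of a bound factor.

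The cells were grouped into classes by clustering on genes that excluded all members, so no class was drawn on the values described here. The named classes held 342 arterial, 440 capillary and 299 venous endothelial-like cells (1081 endothelial-like in all), 1043 pericyte-like, 177 smooth muscle-like, 76 fibroblast-like, 155 oligodendrocyte-like and 25 microglia-like cells. Cldn5 and Pdgfrb were among the markers that named the classes, so their levels are no separate check on the names. Cldn5, pooled over the 1081 endothelial-like cells, was at 28820 CPM and in the pericyte-like class at 5.92, and Pdgfrb was at 0.582 and 5051. CPM, the usual scale for read counts, relates the class's summed reads for a gene to its summed reads over all genes. Cells had between 99905 and 1606954 reads (median 350339), with class medians from 305813 in capillary endothelial-like to 625675 in fibroblast-like cells. A gene is called read in a cell if at least 1 read remained after each cell was thinned to 90000 reads, and the share before thinning is given beside it. As a guide to background, Cldn5 was read in 5.75% of pericyte-like cells when thinned and 14.0% unthinned, and Pdgfrb in 1.85% and 3.42% of endothelial-like cells. Since no animals are named, there are no replicates and no test was made: values are given with their range over plates of at least 10 cells, and intervals are 95% exact ones that cover counting error only.

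Fos was highest in smooth muscle-like and fibroblast-like cells and lowest in pericyte-like cells, leaving out the 25 microglia-like cells. Its pooled level on plates Mural3 to Mural6 was 12140, 7373, 9055 and 11470 CPM in smooth muscle-like cells and 125.8, 225.9, 106.6 and 78.7 CPM in the pericyte-like cells of the same plates. Every smooth muscle-like value therefore lay above every pericyte-like one, and pooled Fos was 9982 against 132 CPM. Fibroblast-like cells were at 9018 CPM on plate Pdgfra1 and 2570 CPM on Pdgfra2, and oligodendrocyte-like cells at 1748 and 405 CPM. On plates EC3 to EC6 arterial endothelial-like cells held 1447, 1143, 1419 and 861 CPM and capillary endothelial-like cells 303, 246, 220 and 62.1 CPM, again without overlap. Venous endothelial-like cells lay between 184 and 657 CPM and overlapped the capillary range. In order of pooled level, Fos stood at 9982 CPM in smooth muscle-like, 8333 in fibroblast-like, 1319 in arterial, 950 in oligodendrocyte-like, 369 in venous, 209 in capillary and 132 CPM in pericyte-like cells. In this order only fibroblast-like and arterial cells were neighbours with plate ranges apart. Microglia-like cells, at 11050 CPM, had no plate with 10 cells, and 56.0% of them were mixed wells, that is, wells in which the markers of a second class summed to 10% or more of what that class typically holds (its median).

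The thinned share of cells with Fos followed the order of its level, except that fibroblast-like stood above smooth muscle-like and pericyte-like above capillary cells. Fos was read in 78.5% of smooth muscle-like cells (interval 71.7 to 84.3%, unthinned 82.5%), 81.6% of fibroblast-like (unthinned 92.1%), 52.1% of arterial (58.8%), 27.1% of venous (39.1%), 18.6% of capillary (28.4%) and 37.4% of oligodendrocyte-like cells (54.2%). The oligodendrocyte-like share was 73.7% on plate Pdgfra1 and 25.6% on Pdgfra2. Pericyte-like cells gave 19.9% thinned (interval 17.6 to 22.5%) but 43.7% unthinned, above the 41.0% of endothelial-like cells. Most of these pericyte-like cells held few Fos reads: the median over cells with a read was 4.09 CPM, against 339 CPM in endothelial-like and 11490 CPM in smooth muscle-like cells, and 8.34% of pericyte-like cells reached 10 CPM against 27.1% of endothelial-like cells. The 5% of pericyte-like cells with the highest Fos held 97.7% of its summed CPM. Fosb, a close relative of Fos, was the member read least often in endothelial-like cells (9.25%) and stood between 466 and 990 CPM on the smooth muscle-like plates, 21.4 and 39.0 on the arterial, 0.991 and 6.44 on the capillary, and 0.912 and 8.54 CPM on the pericyte-like plates.

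**Figure D1:**
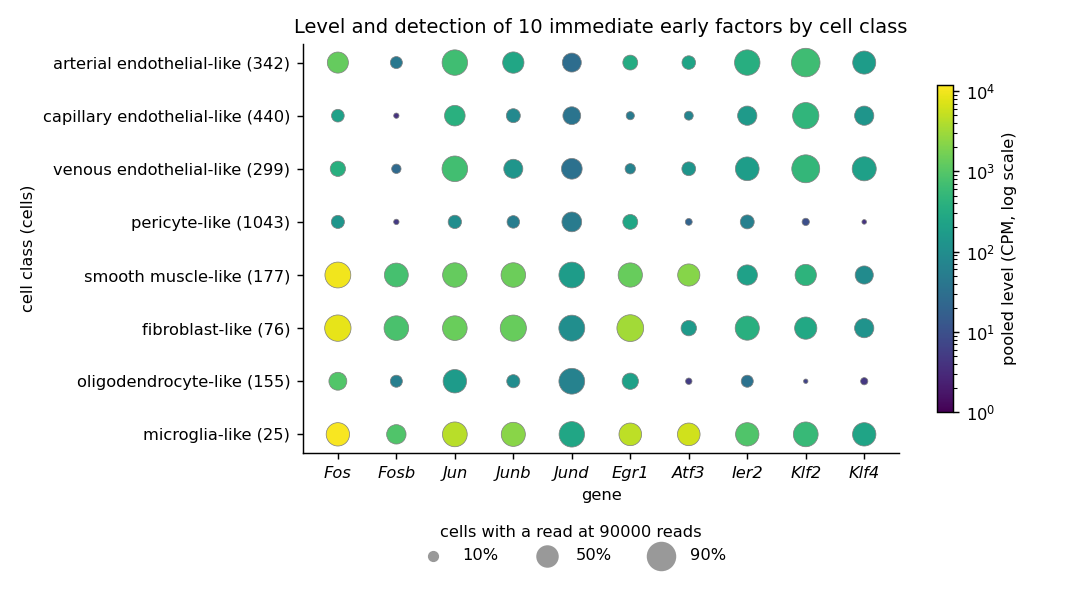
Pooled level (colour, CPM on a log scale) and share of cells with a read after thinning to 90000 reads (circle area) for the 10 members in 8 cell classes. Smooth muscle-like and fibroblast-like cells hold Fos at 9982 and 8333 CPM, and Klf2 and Klf4 are at 9.58 and 4.06 CPM in pericyte-like cells.

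Of the 3 Jun genes, Jun and Junb were highest where Fos was, and Jund varied least in level. Jun, an AP-1 partner of Fos, was at 451, 516, 786 and 531 CPM in endothelial-like cells on plates EC3 to EC6 and at 121, 96.9, 66.3 and 110 CPM in pericyte-like cells on plates Mural3 to Mural6, with no overlap. It was read in 65.5% of endothelial-like cells (69.8% unthinned) and 20.6% of pericyte-like cells (27.3%). In smooth muscle-like cells it stood between 1000 and 1679 CPM. Junb, an AP-1 subunit that can oppose Jun, was at 1773, 1016, 1327 and 1800 CPM on the smooth muscle-like plates and between 32.9 and 67.8 CPM on the pericyte-like ones. Jund, which is made in resting cells as well, spanned 27.9 CPM in arterial to 171 CPM in smooth muscle-like cells, leaving out microglia-like cells at 255 CPM, and was read in 37.1 to 79.0% of cells of each class. It is the member read most often in pericyte-like cells (45.6%, 55.7% unthinned), where its plates gave 41.2, 44.8, 49.6 and 52.6 CPM.

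Egr1 was higher in pericyte-like than in capillary cells, the reverse of Jun. The gene lies at chr18:34859823-34864984 on the plus strand. Its plate values were 234, 315, 234 and 266 CPM in pericyte-like cells, 77.9, 38.1, 14.3 and 56.3 CPM in capillary cells, and 217, 182, 273 and 297 CPM in arterial cells. Pericyte-like and arterial cells thus overlapped, and both lay above all capillary plates. Per kilobase of exon, which allows genes to be compared, pooled Egr1 and Fos were close in pericyte-like cells, at 58.6 and 62.6 CPM per kilobase, while in endothelial-like cells Egr1 was at 32.0 and Fos at 302 CPM per kilobase. Fibroblast-like cells held Egr1 at 3439 and 2013 CPM on their 2 plates and it was read in 84.2% of them. The pooled arterial Egr1 of 313 CPM lay above all 4 of its plates. A single arterial-like cell on plate Pdgfra1, with 999077 reads and 9304 CPM, held 24.0% of the class's Egr1 reads. The arterial cells of the Cldn5-eGFP line alone gave 245 CPM.

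Atf3 separated smooth muscle-like from fibroblast-like cells, whose Fos levels overlapped, though their lines and plates differed and cannot be told apart from class. It was at 2804, 1782, 2183 and 2041 CPM on the smooth muscle-like plates and at 178 and 11.1 CPM on the fibroblast-like ones, and was read in 57.6% and 27.6% of cells (62.2% and 43.4% unthinned). Oligodendrocyte-like cells gave 8.67 and 2.92 CPM, although their Fos reached 1748 CPM. Endothelial-like plates lay between 86.3 and 205 CPM and pericyte-like plates between 7.13 and 39.5 CPM. Ier2 plates lay between 224 and 402 CPM in arterial and between 136 and 208 CPM in capillary cells, which did not overlap, and between 126 and 310 CPM in smooth muscle-like cells, which overlapped both. Pericyte-like plates were lower than all of these, at 51.9 to 65.8 CPM. Per kilobase of exon, Fos was at 4735, Atf3 at 1016, Junb at 817, Jun at 414, Egr1 at 303 and Klf2 at 236 CPM per kilobase in smooth muscle-like cells, whereas in endothelial-like cells Klf2 (289) stood next to Fos (302), ahead of Jun (180) and Ier2 (153 CPM per kilobase).

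**Figure D2:**
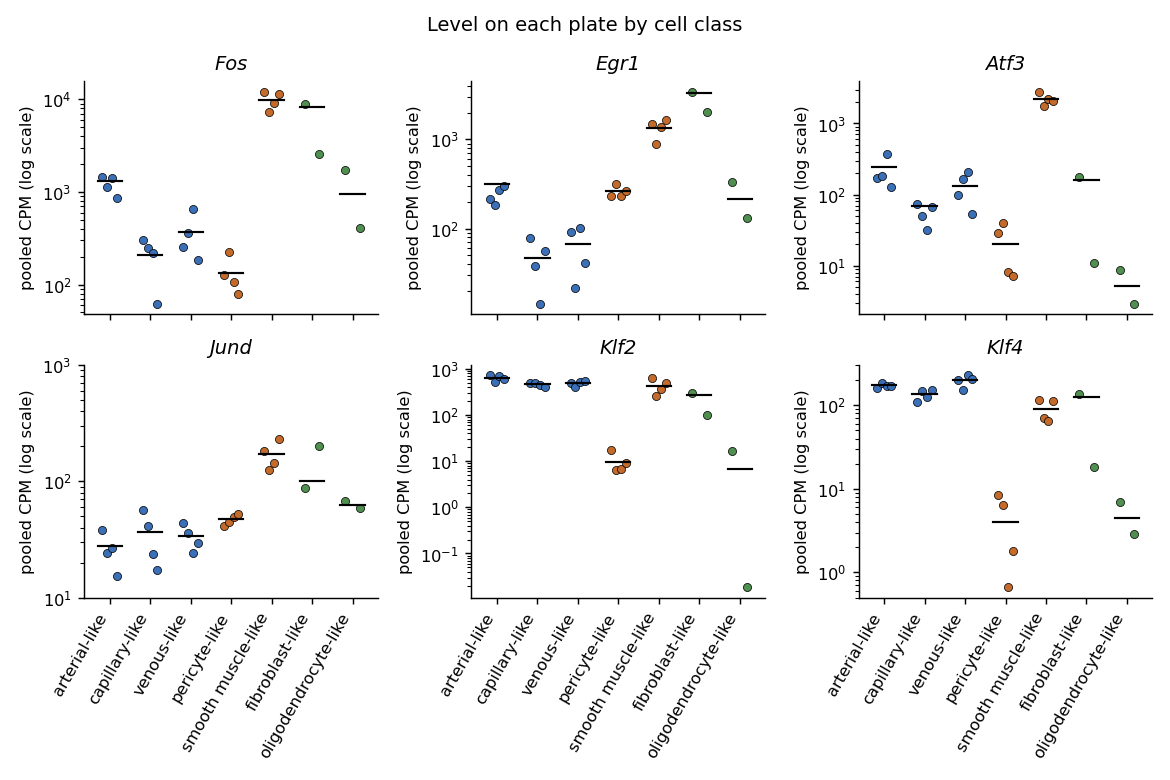
Pooled level on each plate (points, CPM, log axes that differ between panels) and over the whole class (black bars) for 6 members in 7 classes. Klf2 is at 398 CPM or above on every endothelial-like plate and at 17.5 CPM or below on every pericyte-like plate, while Jund spans a narrower range.

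Klf2 and Klf4 marked a different set of classes. Klf2 on plates EC3 to EC6 was 731, 527, 708 and 605 CPM in arterial, 505, 486, 450 and 398 CPM in capillary and 495, 403, 513 and 549 CPM in venous endothelial-like cells. Every arterial plate lay above every capillary one, and the venous range overlapped both. Pericyte-like plates gave 17.5, 6.58, 6.76 and 8.95 CPM, while smooth muscle-like cells of the same plates gave 636, 258, 359 and 507 CPM and so overlapped the endothelial ones. Klf2 was read in 88.7% of endothelial-like cells (90.7% unthinned) and was the member read in most of them, in 57.9% of fibroblast-like, 53.1% of smooth muscle-like, 1.94% of oligodendrocyte-like and 5.94% of pericyte-like cells (9.30% unthinned). Cldn5, which marks endothelium, was read in 5.75% of the same pericyte-like cells (14.0% unthinned). From endothelial-like to pericyte-like cells Cldn5 went from 28820 to 5.92 CPM and Klf2 from 534 to 9.58 CPM. Pericyte-like cells with Klf2 and without it held summed endothelial markers at 1531 and 1487 CPM, and 9.68% and 15.3% of them were mixed wells. Only 2 of the 8 endothelial markers reached 20 CPM in pericyte-like cells, so the sum mostly reflects those 2. Whether Klf2 in these cells came from endothelial material was not tested. Klf4 was at 198 CPM in venous, 173 in arterial, 137 in capillary, 125 in fibroblast-like, 90.0 in smooth muscle-like and 4.06 CPM in pericyte-like cells. Its pericyte-like plates, from 0.662 to 8.52 CPM, were all below its smooth muscle-like plates, from 65.7 to 115 CPM, and 2.11% of pericyte-like cells held Klf4 (3.16% unthinned).

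Endothelial-like cells exceeded pericyte-like cells 2-fold or more in 8 of the 10 members, and fell short by that fold in 0. Among the 11037 genes with 5 CPM on either side, 16.1% were higher by that fold and 19.4% lower. These 2 classes came from different lines and plates, so line, plate and class cannot be told apart. Mixed wells made up 15.0% of the pericyte-like and 0.0925% of the endothelial-like cells. The log2 ratios were 5.66 for Klf2, 5.05 for Klf4, 2.81 for Atf3, 2.54 for Jun, 2.26 for Fos, 2.01 for Fosb, 1.99 for Ier2 and 1.59 for Junb, and -0.52 for Jund and -0.87 for Egr1, with a median of 2.14 against -0.11 for all genes counted. Egr1 passed the 2-fold limit when the 28 endothelial-like cells of other lines were left out (log2 ratio -1.11, 121 against 263 CPM) or plate Pdgfra1 alone (-1.15), where the deep arterial-like cell lay. With the reporter line in place of the class, 4 members were higher and 5 lower, and Fos turned to a log2 ratio of -1.42, the mural line then including its smooth muscle-like cells. With unnamed sub-clusters counted in their broad class, a setting added after seeing the data, 5 were higher and 1 lower, and Fos was at 0.43. The unnamed mural sub-clusters include one of 11 cells with high Fos, 10 of them from the Pdgfra-H2BGFP line. Its part in this was not tested. Klf2 and Klf4 were 2-fold higher in both settings (Klf2 at 2.53 and 4.98).

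Arterial and capillary cells shared the Cldn5-eGFP plates, and arterial cells had 6 of 10 members at least 2-fold above capillary cells and 0 below (background 7.17% and 4.81% of 10179 genes): Fosb, Egr1, Fos, Atf3, Junb and Ier2, with log2 ratios of 3.16, 2.73, 2.65, 1.80, 1.62 and 1.12. Fos was higher on all 4 plates, by 2.25, 2.21, 2.69 and 3.77, whereas Klf2 differed by 0.12 to 0.65 and Klf4 by 0.18 to 0.53 on the log2 scale. Both flow-linked factors differed by less than 2-fold on every plate, and Jund was lower in arterial cells on 3 of 4 plates. Without the 26 arterial and capillary cells of other lines, the same 6 members passed, with Fosb at 2.625, Fos at 2.47 and Egr1 at 2.32. A single arterial-like cell on plate Pdgfra1 held 31.6% of the arterial Fosb reads. Genes per cell moved with this result, with a median of 2845 in arterial, 2182 in capillary and 2801 in venous cells. The capillary class joins 3 sub-clusters that differed in the members, none with a capillary marker among its 10 leading genes. The one of 139 cells, with a median of 264750 reads and 1532 genes, held Fos at 14.9, Jun at 47.1 and Klf2 at 242 CPM. The one of 239 cells (2345 genes) held them at 213, 420 and 519 CPM, and the one of 62 cells (2696 genes), led by the immune genes Ccl5, Cd69, Rgs1 and Cxcl10, at 518, 840 and 667 CPM, Klf2 there being above the arterial 641 CPM. Without each of these in turn, a setting added after seeing the data, 5, 6 and 7 members were at least 2-fold higher in arterial cells and 0 lower. The part of genes per cell in the result was not tested. Unnamed sub-clusters of 306 and 82 cells were left out of the capillary class, though 100% of the capillary markers reached the naming level in each. Their leading genes held more markers of another set. On plates EC3 to EC6 they held Fos at 180 to 420 and 60.3 to 414 CPM, and Ier2 at 147 to 284 and 143 to 194 CPM. Their part in the result was not tested. Venous cells, compared with the same capillary cells, had 1 member at least 2-fold higher, Fosb at 25.1 against 3.94 CPM, and 0 lower (background 5.26% and 4.53% of 10115 genes), and Fosb was below the capillary value on plate EC3 (-0.88). In the Cldn5-eGFP line alone 2 members passed, Fosb and Atf3 (1.22).

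Smooth muscle-like cells shared their 4 plates with the pericyte-like cells, and there all 10 members were at least 2-fold higher and 0 lower (background 12.3% and 17.3% of 10804 genes). The pooled log2 ratios ran from 1.82 for Ier2 and 1.83 for Jund to 6.23 for Fos, 6.71 for Atf3 and 6.97 for Fosb, and each of the 40 plate values was above 1. This comparison uses the same pericyte-like cells as the endothelial one. Fibroblast-like cells, set against the oligodendrocyte-like cells of their own 2 plates, had 9 members higher and 0 lower (background 32.1% and 19.7% of 11935 genes), with Jund at 0.66 the exception and Klf2 highest at 5.17. The plates differed in this. On Pdgfra1 Jund was again below 2-fold (0.36) and Atf3 (4.21) and Klf4 (4.11) stood slightly above Klf2 (4.10), whereas on Pdgfra2 Jund passed (1.75), Ier2 did not (0.98) and Klf2 was at 6.65, from 101 CPM against 0.01845 CPM in oligodendrocyte-like cells. The Pdgfra plates differed in level, Fos being at 9018 CPM in fibroblast-like cells on Pdgfra1 and 2570 CPM on Pdgfra2, but the difference in Fos between the classes was 2.37 on one and 2.66 on the other.

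Cells differed in how many members they held at once. Of the 8 members other than Klf2 and Klf4, the median cell held 7 in smooth muscle-like, 6 in fibroblast-like, 3 in arterial and in venous, 2 in capillary and in oligodendrocyte-like, and 1 in pericyte-like cells. At least 6 of the 8 were read in 107 of 177 smooth muscle-like cells (60.5%) and 47 of 76 fibroblast-like cells (61.8%), against 67 of 342 arterial (19.6%), 32 of 299 venous (10.7%), 12 of 440 capillary (2.73%), 24 of 1043 pericyte-like (2.30%) and 24 of 155 oligodendrocyte-like cells (15.5%). None of the 8 was read in 24.4% of pericyte-like and 19.8% of capillary cells, but in 4.68% of arterial and 4.52% of smooth muscle-like cells. All 10 counted, the median endothelial-like cell held 4 (5 unthinned) and the median pericyte-like cell 1 (2 unthinned).

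**Figure D3:**
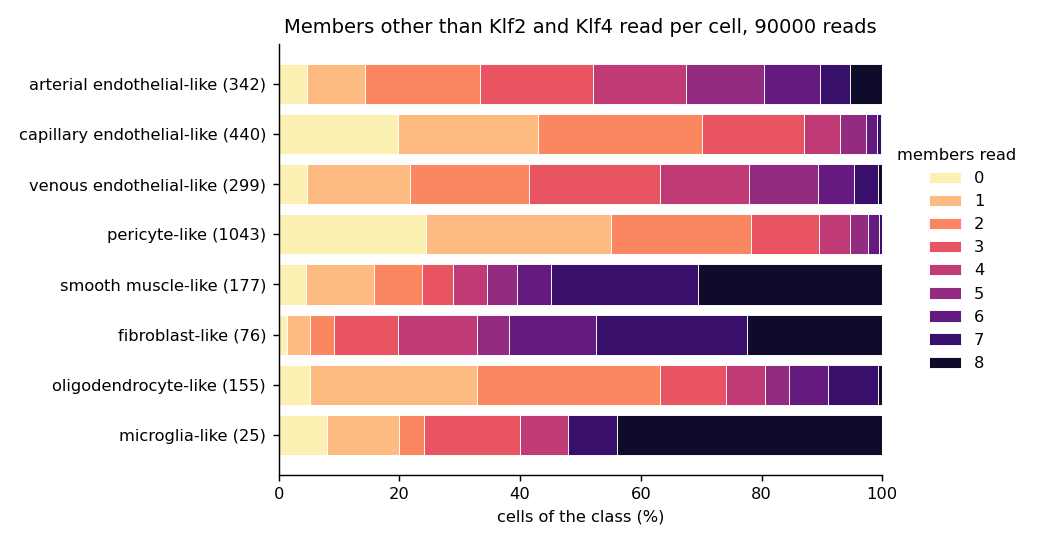
Share of cells of each class (bars, percent) by how many of the 8 members other than Klf2 and Klf4 were read after thinning to 90000 reads. At least 6 were read in 60.5% of smooth muscle-like cells and in 2.73% of capillary cells.

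Other members were read more often in cells with Fos. In endothelial-like, pericyte-like, smooth muscle-like, fibroblast-like and oligodendrocyte-like cells, all 9 other members had a higher share in cells with Fos than in cells without, with a median difference of 21.1, 10.3, 50.9, 37.1 and 33.8 percentage points. Among endothelial-like cells Jun was read in 86.2% of the 341 cells with Fos and 56.0% of the 740 without, Junb in 62.2% and 26.6%, and Egr1 in 29.0% and 7.97%. On each of the plates EC3 to EC6 all 9 members had the higher share beside Fos, with Jun in 80.0 against 51.6% on EC3 and 91.0 against 53.2% on EC4. These endothelial-like shares mix classes that differed in Fos, and within capillary cells 1 of the 9 was lower on EC5 and on EC6. In smooth muscle-like cells Fosb was read in 83.5% of 139 cells with Fos and 5.26% of 38 without, and Jun in 86.3% and 10.5%. The smooth muscle-like cells without Fos also held more of the pericyte markers (6420 against 3125 CPM summed) and less of the smooth muscle markers (39050 against 51740 CPM), and the part of this in the result was not tested. Oligodendrocyte-like cells showed Egr1 in 65.5% of 58 cells with Fos and 10.3% of 97 without, and Jund in 81.0% and 76.3%, intervals that overlapped. These pooled shares mix plates that differed in Fos. Egr1 was read in 57.1 against 30.0% on Pdgfra1, where 10 cells lacked Fos, and in 73.3 against 8.05% on Pdgfra2. Median reads were 562300 in the oligodendrocyte-like cells with Fos and 502406 in those without.

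Depth and mixed wells are given beside these shares. The median endothelial-like cell had 356060 reads with Fos and 330465 without, the median pericyte-like cell 308843 and 343432, and mixed wells made up 13.5% and 15.3% of these pericyte-like cells. Fibroblast-like cells had medians of 697637 and 590400 reads and 16.1% and 28.6% mixed wells with and without Fos (18.4% mixed in all). Smooth muscle-like cells had medians of 381386 and 350020 reads and 1.44% and 7.9% mixed wells. Among capillary cells, 82 with Fos and 358 without, Jun was read in 70.7% and 44.7%, Junb in 45.1% and 17.6%, and Klf2 in 86.6% and 79.9%, with a median of 342922 against 298378 reads. With a limit of 10 CPM in place of thinning, the pericyte-like differences were wider: Jun passed it in 55.2% of the 87 cells with Fos and 14.8% of the rest, and Egr1 in 50.6% and 19.7%. On plate Mural6, 3 of the 9 members had the lower share beside Fos in pericyte-like cells, Klf2 among them at 4.41% against 4.96%. In capillary cells Klf2 was lower beside Fos on EC5 (73.7 against 76.6%, 19 cells with Fos). Egr1 was lower on EC6 (0.0 against 9.21%, 14 cells with Fos), where Jun was at 42.9 against 40.8%.

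**Figure D4:**
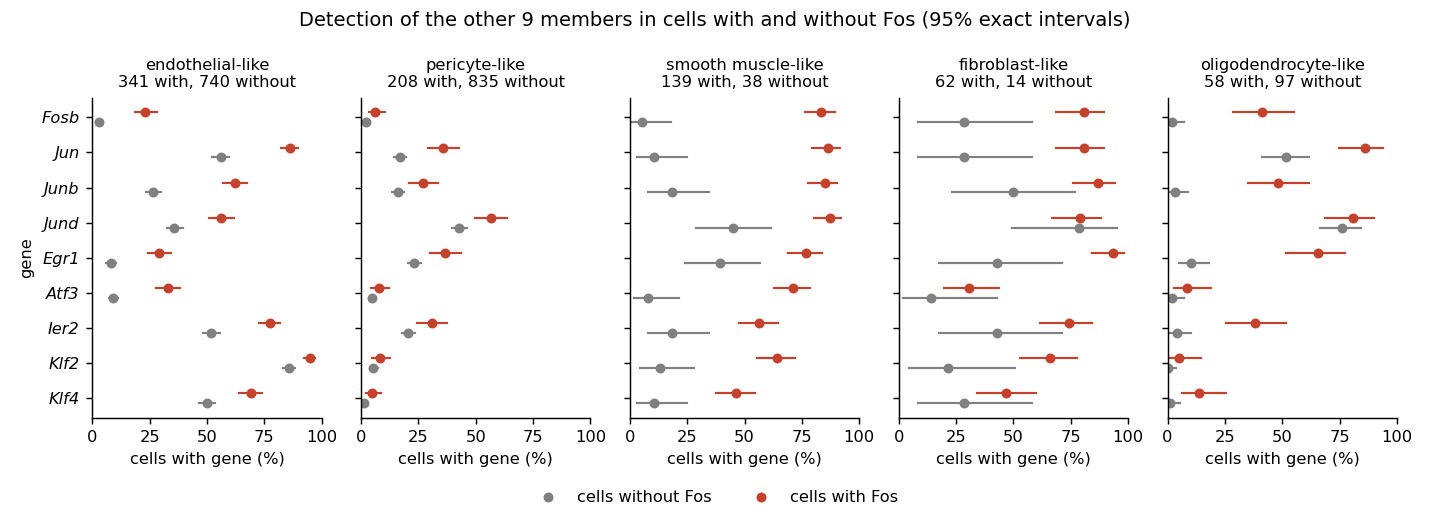
Share of cells with each of the other 9 members (percent, thinned to 90000 reads) in cells with Fos (red) and without (grey) in 5 classes, with 95% exact intervals for counting error. Every red point lies to the right of its grey point, by 30.3 points for Jun in endothelial-like cells.

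Klf2 or Klf4 without Fos was most frequent in endothelial-like cells. Among capillary cells, 302 of 440 (68.6%, interval 64.1 to 73.0%) held Klf2 or Klf4 and no Fos, and venous cells gave 203 of 299 (67.9%). Arterial cells gave 158 of 342 (46.2%, interval 40.8 to 51.6%), and the intervals of arterial and capillary cells did not overlap. By plate the shares were 51.4, 50.0, 47.1 and 39.6% in arterial, 68.6, 66.1, 65.6 and 73.3% in capillary and 67.1, 68.7, 58.3 and 78.1% in venous cells on EC3 to EC6, and every arterial plate lay below every capillary and venous one. Of all 994 endothelial-like cells with Klf2 or Klf4, 663 (66.7%) lacked Fos. The share was 57.0% unthinned and 70.6% at 10 CPM. For Klf2 alone it was 66.2% and for Klf4 alone 61.1%. In the whole class 740 of 1081 cells lacked Fos. The 994 cells with a factor make up most of that class, so these shares could hardly differ. Over all endothelial-like cells Klf2 was read more often in cells with Fos than in cells without on each plate. The shares were 96.25 against 87.63, 92.31 against 82.98, 94.62 against 84.48 and 97.56 against 88.37% on EC3 to EC6.

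Other classes held few such cells. In pericyte-like cells 57 of 1043 (5.47%) had Klf2 or Klf4 without Fos, with plate shares of 9.54, 4.69, 3.91 and 4.14% on Mural3 to Mural6. Cldn5 was read in 4.56, 5.86, 7.81 and 4.83% of the pericyte-like cells of these plates, a different order. The 80 pericyte-like cells with either factor lacked Fos in 71.3% of cases when thinned, 44.0% unthinned and 82.5% at 10 CPM, so this value turned on the limit for a read. Smooth muscle-like cells gave 9 of 177 (5.08%), although 108 of them had a factor: 8.33% of these lacked Fos (interval 3.88 to 15.2%). Fibroblast-like cells gave 6 of 76 and oligodendrocyte-like cells 1 of 155, and microglia-like cells 4 of 25, with 49, 11 and 19 cells holding a factor. The reverse, Fos without either factor, was read in 0.925% of endothelial-like cells (10 of 1081) against 31.0% of oligodendrocyte-like, 25.0% of fibroblast-like, 22.6% of smooth muscle-like and 17.7% of pericyte-like cells. With or without a factor, 835 of 1043 pericyte-like and 38 of 177 smooth muscle-like cells lacked Fos.

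**Figure D5:**
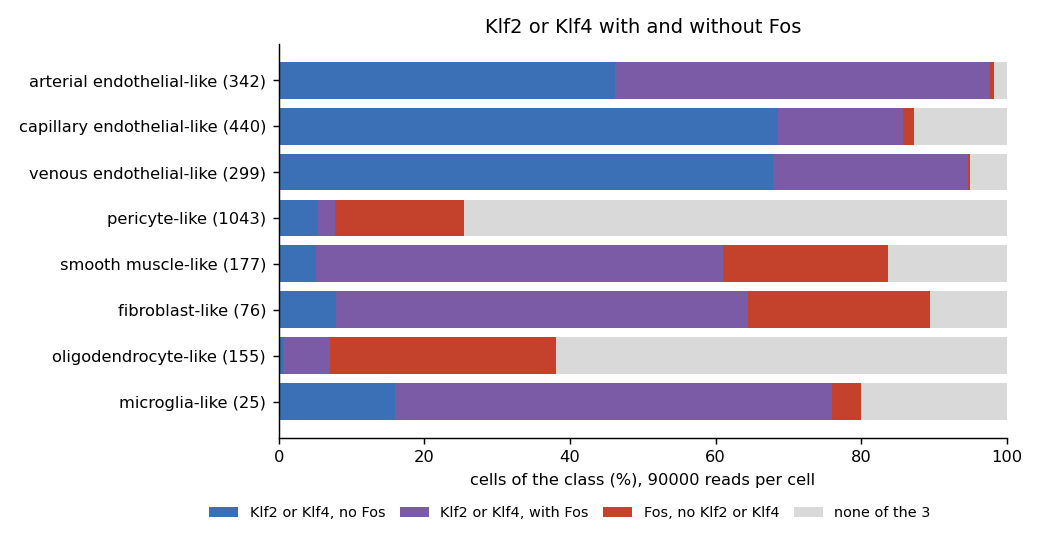
Share of cells of each class (bars, percent, thinned to 90000 reads) with Klf2 or Klf4 and no Fos, with both, with Fos alone among the 3, or with none. Capillary and venous cells are 68.6 and 67.9% in the first group, and smooth muscle-like cells 5.08%.

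Cells with a Kruppel-like factor and no Fos were not free of the other members. In the 663 such endothelial-like cells Jun was read in 60.5%, Ier2 in 53.7%, Jund in 38.0%, Junb in 28.7%, Atf3 in 9.80%, Egr1 in 8.60% and Fosb in 3.17%. None of the 8 others was read in 80 of the 663 (12.1%). Of these 80, 58 were capillary cells, where they made up 19.2% of the 302 cells. The 57 pericyte-like cells differed in makeup, with Jund in 63.2% and Egr1 in 45.6%.

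Correlations of levels over cells are given as a description. Pearson's r of log2(CPM + 1), centred within plates, had a median over the 45 pairs of members of 0.56 in 177 smooth muscle-like, 0.48 in 76 fibroblast-like, 0.26 in 1053 endothelial-like, 0.23 in 155 oligodendrocyte-like and 0.16 in 1043 pericyte-like cells. All pairs share the cell's library and depth. Fos and Fosb (0.87), Fosb and Jun (0.83) and Fos and Jun (0.83) were the closest in smooth muscle-like cells, and Fos and Egr1 in oligodendrocyte-like (0.85) and fibroblast-like cells (0.81). In endothelial-like cells Fos stood at 0.46 with Junb and 0.42 with Jun but at 0.26 with Klf2 and 0.28 with Klf4, and Jund with Egr1 was the lowest pair at 0.06. Among 3669 other genes read in at least 25% of endothelial-like cells, those closest to Fos were Nr4a1, an orphan nuclear receptor of the early response (0.59), the heat shock genes Hspa1a (0.47) and Hspa1b (0.43), Ppp1r15a, a phosphatase subunit of the stress response (0.41), and Zfp36, an RNA-decay factor (0.40), against a median of 0.05 over all. Hspa1a and Hspa1b are near-identical copies whose reads may be split between them. Those closest to Klf2 were Malat1 (0.38), Dusp1 (0.37) and Id1 (0.32), and to Klf4 Hspa1a (0.35), Hspa1b (0.32) and Nr4a1 (0.30). For Jund none of the 5 passed 0.25, which is weak, and for Fos in pericyte-like cells Hspa1a (0.37) led over 2909 genes and the next, Dusp1, was at 0.20.

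The wider immediate early response was counted in the same comparisons. Of 33 other immediate early and primary response genes, 26 could be counted between endothelial-like and pericyte-like cells, of which 14 passed 2-fold upward and 2 downward. Their median log2 ratio was 1.201. The largest were Gadd45g (70.6 against 1.65 CPM), Ptgs2, the inducible cyclooxygenase (21.6 against 0.0893 CPM), and Sgk1, a serum-induced kinase (298 against 19.4 CPM), and at the other end Gadd45b was at 18.4 against 39.2 CPM. Nr4a1, the gene closest to Fos within endothelial-like cells, was level between the classes at 218 and 232 CPM. The same list gave 22 of 29 higher and 0 lower in smooth muscle-like over pericyte-like cells (median 2.98), with Socs3 at 443 against 4.75 CPM, and 13 of 26 higher and 2 lower in arterial over capillary cells (median 0.99). In venous over capillary cells 2 of 24 were higher and 1 lower. Of all genes, 16.1% were higher and 19.4% lower in endothelial-like over pericyte-like cells, and 12.3% and 17.3% in smooth muscle-like over pericyte-like cells. These shares were 7.17% and 4.81% in arterial and 5.26% and 4.53% in venous over capillary cells, and the venous counts were near theirs.

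Related families had fewer genes past 2-fold between endothelial-like and pericyte-like cells. Of 12 other AP-1 and bZIP genes, 8 were counted between endothelial-like and pericyte-like cells, and 1 was higher and 0 lower (median log2 ratio -0.20). Atf4, a stress-response factor, was at 254 and 250 CPM. Between smooth muscle-like and pericyte-like cells 5 of 8 were higher and 1 lower, Fosl2 most at 174 against 23.0 CPM. Of 13 other Kruppel-like genes, 3 of the 10 counted were higher in endothelial-like cells and 1 lower: Klf10 at 81.3 against 8.74 CPM, Klf6 at 289 against 120 CPM, Klf12 at 185 against 86.2 CPM, and Klf15 at 2.72 against 29.1 CPM. None of 9 passed in arterial or venous over capillary cells. Of 17 upstream kinases and cofactors, 3 were higher and 2 lower in endothelial-like cells, with Elk3 (182 against 23.3 CPM) and Mkl2 (423 against 63.5 CPM) among the higher and Mkl1 (15.2 against 51.9 CPM) and Mef2c (154 against 405 CPM) lower. Elk3, Mkl1 and Mkl2 are cofactors of serum response factor. Against the 16.1% of all genes that were higher and the 19.4% lower, the upstream counts are near or under the background. All 8 flow-responsive endothelial genes were higher, a list that holds endothelial identity genes such as Pecam1 (1383 against 2.79 CPM). Pecam1, Cdh5 and Tek were among the markers that named the endothelial cells, so their higher level is no separate result. Of 11 heat shock genes 2 were higher in endothelial-like cells, Hspa1a and Hspa1b, also near that background, and 7 in smooth muscle-like over pericyte-like cells, with Hspa1a at 1717 against 177 CPM.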

How the data were processed

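Per the labels, single cells were sorted from adult brain and sequenced by Smart-seq2. The submitters' processing notes name STAR 2.4.2a and mm10. The counter, annotation and filters were not given in the sources used here. As files, the authors deposited read counts per gene and cell, without molecular tags, and a table rescaled to between 499421 and 501418 per cell and rounded, treated here as a score. All 3186 columns matched a sample and 0 were left over. Members and gene lists were chosen with earlier results of these data known.

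Cells were clustered on a seeded random 50% of genes without any listed gene (2000 variable genes, 30 components, 15 neighbours, Leiden resolution 1), endothelial and mural cells a second time. A cluster took the name of the marker set with most markers at 25% (50% for sub-clusters) of the highest cluster's level, if over 50% of them were and at least 3 were at 20 CPM. Sub-clusters, and clusters not divided again, stayed unnamed where their 10 leading genes held more markers of another set than of their own. Part of this naming was settled only once the data had been looked at. No doublet caller was run, and mixed wells were kept. Reads per class were summed to CPM with exact Poisson intervals, shares have exact binomial intervals (95%), and log2 ratios used a pseudocount of 1 CPM. The sorting and plates are as the labels give them, and plates are not tied to animals. The text names all 10 members, of each list up to 3 genes highest and 3 lowest in log2 ratio among those reaching 20 CPM, and the 5 genes most like Fos, Klf2, Klf4 or Jund by r over cells. Genes outside this rule (Nr4a1 and Atf4 as levels, Socs3, Fosl2 and Hspa1a in smooth muscle-like cells) were picked after their values were seen. Promoter sequences are from RefSeq. Statistics were tested on simulated data. Python 3.11.15, numpy 2.4.6, scipy 1.17.1 and scanpy 1.11.5 were used.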

Additional observations from a re-analysis of the deposited data

Results flagged for a closer look

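Among 60 pairs of class and member with values on 4 plates, 1 had a plate set apart from the others: Jun in venous endothelial-like cells, at 1087 CPM on plate EC5 against 536, 550 and 579 CPM on the other plates. The gap is 0.922 of the whole range. The limit for calling a gap was set so that chance alone passes it in about 1 of 20 groups. Finding 1 among 60 is below that rate.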

How the results depend on the processing

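No paired analysis was possible because no test was made and endothelial-like and pericyte-like cells share no plate with 10 cells of each. Ratios within shared plates stand in the report for the other comparisons. Among alternative values of the main results, 151 stayed within their spread and 31 moved. Where 8 members passed 2-fold upward and 0 downward between endothelial-like and pericyte-like cells, the reporter line in place of the class gave 4 and 5, and counting unnamed sub-clusters, a setting chosen after seeing the data, gave 5 and 1. Resolution 0.5, the other genes for clustering, plates weighted equally, the authors' scaled table, the mean of per-cell CPM and the Cldn5-eGFP line alone (also chosen after seeing the data) each gave 1 lower. Without single plates the counts were 8 to 8 and 0 to 1. The share of cells with Fos was 40.98% without thinning, 27.1% at 10 CPM and 25.9% at 50 CPM in endothelial-like cells (30.47 to 32.27% without single plates), and 43.72, 8.341 and 5.561% in pericyte-like cells (18.59 to 21.73%) and 27.09% over the mural line. Of cells with Klf2 or Klf4, those lacking Fos were 57.04, 70.57 and 71.38% in endothelial-like cells under the same 3 limits (66.01 to 67.91%), and 44.0, 82.54 and 84.62% in pericyte-like cells (69.39 to 72.58%), with 46.32% over the mural line. The difference in Jun beside Fos was 24.71, 38.5 and 39.65 points (27.91 to 31.38) and 24.25 at resolution 2. The median number of members was 5 without thinning and 3 at 50 CPM (4 to 4). Among log2 ratios of single members, 208 stayed, 17 moved and 5 reversed: by reporter line Fos at -1.425, Fosb at -2.557, Junb at -0.714 and Atf3 at -1.348, and Fosb at -0.24 with unnamed sub-clusters counted. The causes were not tested. Resolution 0.5 left 152 pericyte-like cells. Depth limits shares at few reads, as in the Fos of pericyte-like cells.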

Other observations

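Sub-clusters that took no class name held the members as follows. Within the clusters first named mural was a small sub-cluster of 11 cells, 10 of them from the Pdgfra-H2BGFP line and 72.7% mixed wells. It had Fos at 16780 CPM and Klf2 at 202 CPM, and none of its 7 cells with Klf2 or Klf4 lacked Fos. Another with 137 cells had Fos at 29.8 and Klf2 at 7.50 CPM, and one with 39 cells Fos at 49.1 and Klf2 at 77.9 CPM, 56.4% of these being mixed wells. In the latter, 15 of 39 cells (38.5%) held Klf2 or Klf4 without Fos. Within the cluster first named endothelial, sub-clusters of 306, 82 and 54 cells had Fos at 323, 292 and 158 CPM and Klf2 at 401, 479 and 307 CPM. Of the 54 cells, 45 came from the Pdgfrb(BAC)eGFP/NG2dsRed line and 38.9% were mixed wells, with Pdgfrb at 564 and Cldn5 at 5905 CPM. Its leading genes include the pericyte markers Pdgfrb, Vtn, Atp13a5 and Kcnj8. Klf2 or Klf4 without Fos was read in 65.7, 69.5 and 50.0% of the 3 sub-clusters' cells.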
